A study of Mus musculus with 87 samples.

Results

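The unfolded protein response genes described here are 10 protein-coding genes picked by symbol from 37991 genes in the deposited table: Hspa5, Hsp90b1, Dnajb9, Sdf2l1, Derl3, Herpud1, Xbp1, Atf4, Ddit3 and Trib3. The selection leaned on measured values, because Derl3 was put forward for its lower level after hepatectomy than after sham surgery at 10 h, so that comparison is described below without a test. All 10 genes were among the 15396 detected genes, those above a log2 RPKM of -1.5 in at least 1 library (RPKM: reads divided by transcript length in kilobases and by library size in M reads). Each was above that limit in all 80 libraries except Derl3 (in 79) and Trib3 (in 79).

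The series followed mRNA of whole livers from male C57BL/6 mice, 12 to 14 weeks old, during regeneration after partial hepatectomy (PH), the surgical removal of most of the liver. Mice were kept in light for 12 h a day, with food offered in the dark hours only, and surgery was done at Zeitgeber time (ZT) 2, ZT0 being lights on. PH livers (X) were sampled on the day of surgery at 1, 4 and 10 h, then at 20, 28, 36 and 44 h, at 48 and 72 h, and at 1 and 4 weeks. Livers of mice that had the abdomen opened without resection (sham, S) were sampled at 1, 4 and 10 h and again at 20 and 48 h. Livers without surgery (C) were taken at ZT2 (C0, n = 9), at ZT6 (C4, n = 3) and in parallel with the 4-week PH livers (C4W, n = 2). Group sizes were 6 for X1, X10, X20, X36 and S1, 5 for X48 and S4, 3 for X4, X28, X44, X72, X1W, S10, S20 and S48, and 2 for X4W. These sizes count livers with values, and of the labelled X4 livers replicates 1 to 3 have none. Time after surgery, time of day and feeding run together in this design: the livers at 4 and 28 h are from ZT6, those at 20 and 44 h from ZT22, and those at 48 h, 72 h and the weeks from ZT2, so a comparison across different ZT cannot tell surgery apart from time of day. Livers were collected in 3 separate periods: S48, X28, X44, X48, X72 and X1W in the first, S10, S20, C4W and X4W in the second, C4 in the third, C0 in all 3, and every other group in the first and second. The labels tie no single liver to its period, so no fit with the period as a term was made. In the comparisons of S4 and X4 with C4, period and surgery cannot be told apart. The C57BL/6 line, poly(A) selection and whole-liver RNA were shared by all groups, and in such bulk RNA fewer cells of a type and less RNA per cell cannot be told apart.

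The endoplasmic reticulum (ER) of the hepatocyte folds the plasma proteins that the liver secretes, with the help of chaperones, enzymes that form disulfide bonds and a degradation route for proteins that fail to fold. When unfolded proteins build up, the sensors IRE1, PERK and ATF6 start the unfolded protein response: IRE1 splices Xbp1 mRNA, ATF6 is cut to release a transcription factor, and PERK slows translation while the transcription factor ATF4 is made. Among the members, Hspa5 (BiP) and Hsp90b1 (GRP94) are the main ER chaperones, Dnajb9 and Sdf2l1 are partners of BiP, Derl3 and Herpud1 serve ER-associated degradation (ERAD), Xbp1 and Atf4 encode transcription factors of the IRE1 and PERK arms, and Ddit3 (CHOP) and Trib3 lie downstream of ATF4.

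In the files' build, mm9 (NCBIM37), Hspa5 (ENSMUSG00000026864) lies at chr2:34627490-34632051 on the plus strand and Trib3 (ENSMUSG00000032715) at chr2:152163158-152169768 on the minus strand. On chromosome 10 lie Hsp90b1 (ENSMUSG00000020048) at chr10:86152954-86168254 on the minus strand, Derl3 (ENSMUSG00000009092) at chr10:75356143-75358686 and Ddit3 (ENSMUSG00000025408) at chr10:126727830-126733344, both on the plus strand. Dnajb9 (ENSMUSG00000014905) is at chr12:45306884-45311055 and Sdf2l1 (ENSMUSG00000022769) at chr16:17130231-17132476, both on the minus strand. Herpud1 (ENSMUSG00000031770) is at chr8:96910338-96919277, Xbp1 (ENSMUSG00000020484) at chr11:5420662-5425896 and Atf4 (ENSMUSG00000042406) at chr15:80085614-80087970, all on the plus strand. The values count reads over the exons of each gene, so the spliced and unspliced forms of Xbp1 mRNA are not told apart. Reads were counted by strand, which separates Hsp90b1, Herpud1 and Ddit3 from the annotated genes that overlap them on the opposite strand. Gm15344 and AC152453.1 overlap Hsp90b1 on the same strand, and counting by strand does not separate these reads.

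Promoter sequence is shown for the members that carry a known ER stress element. The members were picked as known genes of this response, so these elements describe them and are no independent support for the selection. In the window from 250 bases before to 50 after each start (RefSeq, GRCm38.p6, a different build from that of the files), the ER stress element ERSE, CCAAT and CCACG with 9 bases between them, on either strand, was found for 3 members, and the related ERSE-II, ATTGG and CCACG with 1 base between them, for 1 more. Of 32851 RefSeq windows of this length, 0.119% held ERSE and 0.0365% held ERSE-II. The 250 bases before the start are given 5′ to 3′ on the gene's strand, with the fixed letters of each match in capitals.
Hspa5 (GRCm38.p6 chr2:34771840-34772089, plus strand, ERSE at -65 to -47): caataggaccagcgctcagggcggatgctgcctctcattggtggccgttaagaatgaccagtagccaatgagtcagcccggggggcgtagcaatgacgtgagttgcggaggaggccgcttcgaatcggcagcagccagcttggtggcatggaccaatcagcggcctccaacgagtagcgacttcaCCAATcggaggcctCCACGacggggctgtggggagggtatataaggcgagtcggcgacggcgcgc
Hsp90b1 (GRCm38.p6 chr10:86705445-86705694, minus strand, ERSE at -212 to -194 and, on the other strand, at -107 to -89): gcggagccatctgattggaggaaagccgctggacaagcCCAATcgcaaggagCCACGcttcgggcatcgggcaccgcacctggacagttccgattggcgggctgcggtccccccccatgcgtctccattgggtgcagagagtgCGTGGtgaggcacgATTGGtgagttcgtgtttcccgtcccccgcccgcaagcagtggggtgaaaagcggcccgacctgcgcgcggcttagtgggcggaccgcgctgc
Derl3 (GRCm38.p6 chr10:75893148-75893397, plus strand, ERSE on the other strand at -156 to -138): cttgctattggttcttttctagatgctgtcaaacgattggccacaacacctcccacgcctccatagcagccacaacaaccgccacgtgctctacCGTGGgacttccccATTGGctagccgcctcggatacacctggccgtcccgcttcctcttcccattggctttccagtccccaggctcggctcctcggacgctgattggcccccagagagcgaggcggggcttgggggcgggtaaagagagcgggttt
Herpud1 (GRCm38.p6 chr8:94386179-94386428, plus strand, ERSE-II at -52 to -42 and, on the other strand, an ATF4 element at -112 to -105): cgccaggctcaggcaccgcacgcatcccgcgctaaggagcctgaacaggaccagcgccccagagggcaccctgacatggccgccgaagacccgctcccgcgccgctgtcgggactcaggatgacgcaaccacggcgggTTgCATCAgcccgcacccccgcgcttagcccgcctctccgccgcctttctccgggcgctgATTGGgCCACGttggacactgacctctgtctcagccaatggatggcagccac
The ATF4 element searched (CARE, TGATGNAA on either strand) was in 3.97% of all promoters and, of the members, in those of Herpud1 and Trib3. The element UPRE, TGACGTGG, was in 0.676% of all promoters and in none of the members' windows. Dnajb9, Sdf2l1, Xbp1, Atf4 and Ddit3 had no match to any of the 4 motifs, which says only that these letters are not in these windows.

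Depth was estimated from the steps of low RPKM values at 12.2 to 48.8 M reads a library, with a median of 26.7 M. Hspa5 and Hsp90b1 rested on at least 9287 estimated reads in every library, and the remaining chaperone, ERAD and transcription factor genes on at least 299, except for Derl3 (at least 12), Trib3 (at least 18) and Ddit3 (at least 32). Derl3 also varied most between livers of a group, with a pooled standard deviation of 1.29 log2 units against 0.21 for Atf4 and 0.35 to 0.55 for the other 8 members. Hepatocyte markers were high in all libraries, with Alb, Ttr, Apoa1, Apob, Tat and Cps1 summing to 23449 to 56977 RPKM. The resting C0 livers did not form a single level: in replicates 4 to 6 Hspa5 was at 7.01, 7.07 and 7.08 log2 RPKM against 7.27 to 9.11 in the other 6, and Herpud1 at 7.71, 7.62 and 7.61 against 5.57 to 6.60. Each comparison with C0 was therefore repeated against each set of 3 resting livers (replicates 1 to 3, 4 to 6 and 7 to 9), and counts or values from these sets are given beside the results. The shares of all genes called are those with all C0 livers, so counts from the sets have no such share beside them. If the replicate numbers run in the order of the periods, which the labels do not say, these sets are the 3 periods, replicates 1 to 3 are the resting livers of the period of X48, X72 and X1W, and replicates 7 to 9 those of C4. X1W replicate 2 also stood apart from the other X1W livers, with Hspa5 at 9.70 against 8.14 and 8.57 and Derl3 at 4.56 against -0.99 and 1.20. Among the C0 livers macrophage markers summed to at most 148 RPKM (median 24.5) and neutrophil markers to at most 52.2 (median 1.05). C0 replicate 8 was the highest library for Clec4f, Vsig4, Cd5l, Csf1r, Cd68, S100a9, Ngp, Camp and Ltf, but not for Emr1, Marco, S100a8 or Retnlg. Its part in the results was not tested.

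The levels spanned a wide range on the per-length RPKM scale. Hspa5 was the most abundant member in its highest library (1311 RPKM in an S4 liver), and Derl3 the least in its lowest (0.291 RPKM). For 5 of the 10 members, Hspa5, Dnajb9, Herpud1, Atf4 and Ddit3, the sham livers at 4 h had the highest mean of all 19 groups, and for Sdf2l1, Herpud1, Ddit3 and Trib3 the PH livers at 4 h had the lowest. Xbp1 was the exception in being highest in the PH livers at 4 h.

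**Figure D1:**
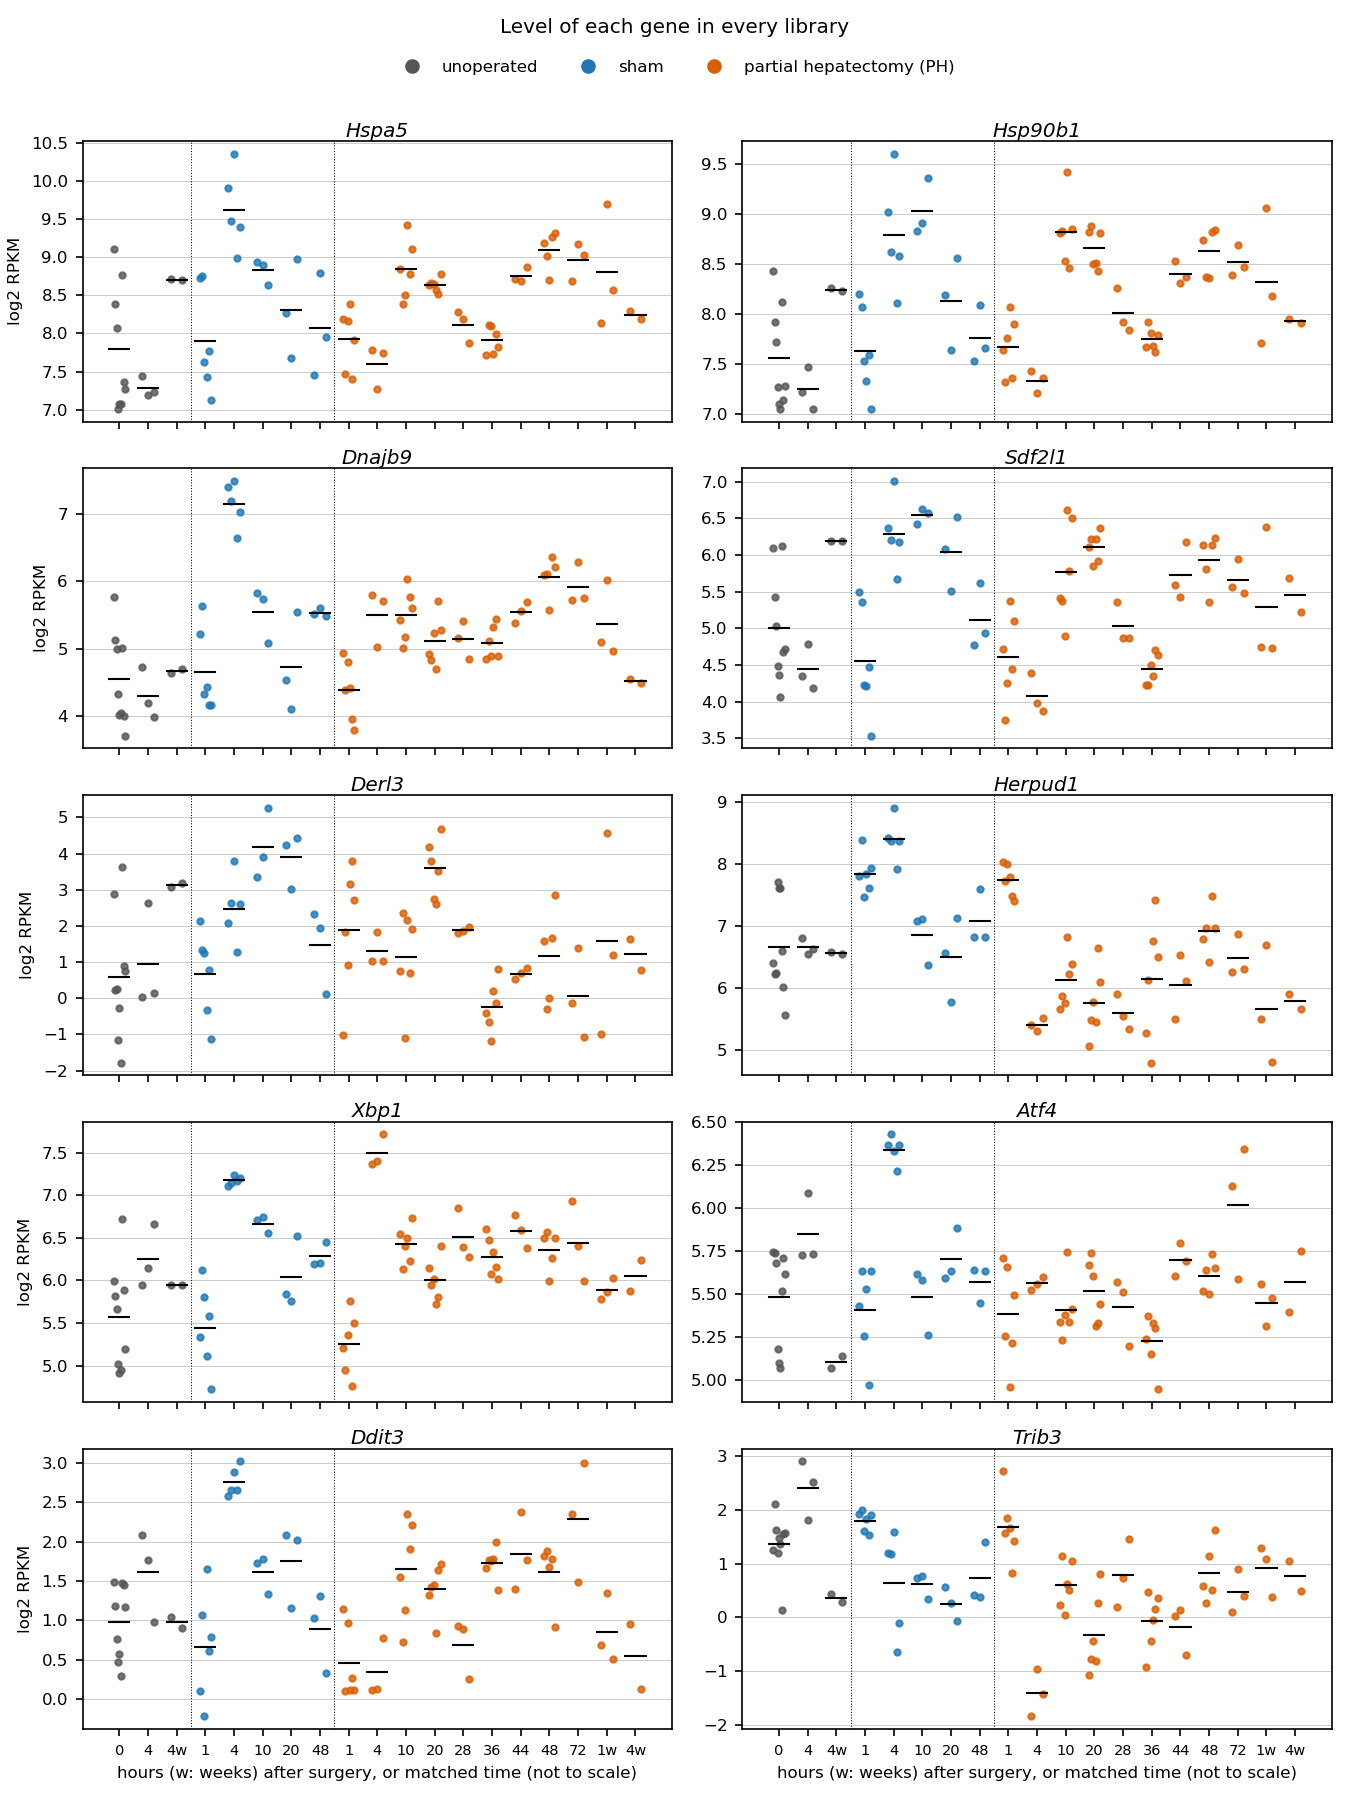
Log2 RPKM (vertical axes) of the 10 genes in each of the 80 libraries, by group along the horizontal axes (grey unoperated, blue sham, orange PH, black bar the group mean). Sham livers at 4 h have the highest group mean for Hspa5, Dnajb9, Herpud1, Atf4 and Ddit3, and Derl3 shows the widest scatter within groups.

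The effect of resection itself was addressed by setting PH against sham livers of the same hour. At 1 h none of the 10 was called (limma, adjusted p below 0.05 by Benjamini-Hochberg over 15396 genes and a difference beyond 0.5 on the log2(RPKM + 0.25) scale, n = 6 and 6), where 0.650% of all genes were called. At an unadjusted p below 0.05 there was also none. Differences ran from -0.27 for Dnajb9 to 1.13 for Derl3, whose 95% interval of -0.13 to 2.40 was the widest of the members. Against the resting livers at C0, Herpud1, which encodes an ER membrane protein of the ERAD complex, was higher at 1 h after either operation, by 1.18 ± 0.28 (log2, SE) after sham (adjusted p = 0.0013) and by 1.08 ± 0.28 after PH (adjusted p = 0.0017). It was the only member called in either comparison, where 7.77% and 13.5% of all genes were called. The calls depended on the resting livers: Herpud1 was called against C0 replicates 1 to 3 (1.56 after sham and 1.45 after PH) and 7 to 9 (1.78 and 1.68), but not against replicates 4 to 6 (0.20, adjusted p = 0.77, and 0.10, adjusted p = 0.91). With replicates 4 to 6 alone in both groups the differences were 0.15 (adjusted p = 0.96) after sham and -0.08 (adjusted p = 0.95) after PH. Against single sets other members were called too, as Derl3 was after PH against C0 replicates 4 to 6 (2.50, adjusted p = 0.013). These 2 comparisons share the C0 livers and differ from them in ZT, and the S1 livers, at 7.47 to 8.39 log2 RPKM, overlapped the C0 livers, at 5.57 to 7.71.

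At 4 h, of the 10 genes, 8 were lower in the PH livers than in the sham livers and none was higher, where 8.64% of all genes were called, 5.48% as lower and 3.16% as higher. The members' median difference was -1.60 on the log2 scale, beside -0.04 over all genes tested. The same 8 genes did not overlap between the 3 PH and the 5 sham livers, an arrangement found for 14.7% of all genes in this direction and, with PH higher, for 6.98%.

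Among the chaperones, Hspa5 was at 9.91, 9.47, 10.36, 8.99 and 9.40 log2 RPKM in the sham livers and at 7.79, 7.27 and 7.75 in the PH livers. It was 4.06-fold lower after PH, a difference of -2.02 ± 0.34 (log2, SE, adjusted p = 1.5e-05). Hsp90b1 was at 9.02, 8.62, 9.60, 8.11 and 8.58 after sham and at 7.43, 7.21 and 7.36 after PH. The lowest sham liver thus lay above the highest PH liver for both chaperones, and Hsp90b1 differed by -1.45 ± 0.25 (adjusted p = 2.6e-05). The BiP partners followed: Dnajb9, a J-domain co-chaperone, ranged from 6.64 to 7.50 after sham and from 5.03 to 5.79 after PH, a difference of -1.64 ± 0.32 (adjusted p = 0.00014). Sdf2l1 ranged from 5.68 to 7.01 after sham and from 3.87 to 4.39 after PH (-2.19 ± 0.37, adjusted p = 1.5e-05).

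Of the ERAD genes, Herpud1 showed the largest difference among all members. It was at 8.42, 8.37, 8.91, 7.91 and 8.38 log2 RPKM in the sham livers and at 5.40, 5.30 and 5.52 in the PH livers, 7.93-fold lower (-2.99 ± 0.39, adjusted p = 7.2e-08). Derl3, whose protein belongs to the derlins of the ERAD channel, was at 2.08, 2.64, 3.79, 1.27 and 2.61 after sham and at 1.02, 1.83 and 1.04 after PH. Its groups overlapped, and with an interval of -2.71 to 0.49 it did not pass the test (adjusted p = 0.42).

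Of the PERK arm, Atf4, Ddit3 and Trib3 were each called as lower. Atf4 mRNA was tightly grouped, at 6.21 to 6.43 log2 RPKM after sham and at 5.52, 5.56 and 5.60 after PH (-0.78 ± 0.15, adjusted p = 0.00013). Ddit3, the gene of the pro-apoptotic factor CHOP, was at 2.58, 2.65, 2.89, 2.66 and 3.02 after sham and at 0.11, 0.12 and 0.78 after PH, 4.62-fold lower (-2.21 ± 0.30, adjusted p = 1.5e-07). Trib3, an inhibitory pseudokinase of the ATF4 and CHOP branch, was at 1.19, 1.18, 1.59, -0.64 and -0.10 after sham and at -1.84, -0.96 and -1.42 after PH (-1.55 ± 0.33, adjusted p = 0.00052). The sham livers fell into a higher set, replicates 1 to 3, and a lower pair, replicates 4 and 5, and with the pair alone the call was lost (-0.70, adjusted p = 0.31), as it was when only S4 and X4 entered the fit (adjusted p = 0.073). The count of called members was 7 in both cases and 8 with any single library left out. The 3 PH livers are replicates 4 to 6, so if the numbers follow the periods the pair of sham livers is of their period, and against that pair Hspa5 differed by -1.59 (adjusted p = 0.012) and Herpud1 by -2.73 (adjusted p = 0.00014).

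Xbp1 went apart from its neighbours in the pathway. Its total mRNA was at 7.11, 7.15, 7.24, 7.17 and 7.21 log2 RPKM in the sham livers and at 7.37, 7.40 and 7.72 in the PH livers. The PH livers were all above the sham livers, but the difference of 0.32 ± 0.25 did not pass the test (adjusted p = 0.46, interval -0.18 to 0.82).

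**Figure D2:**
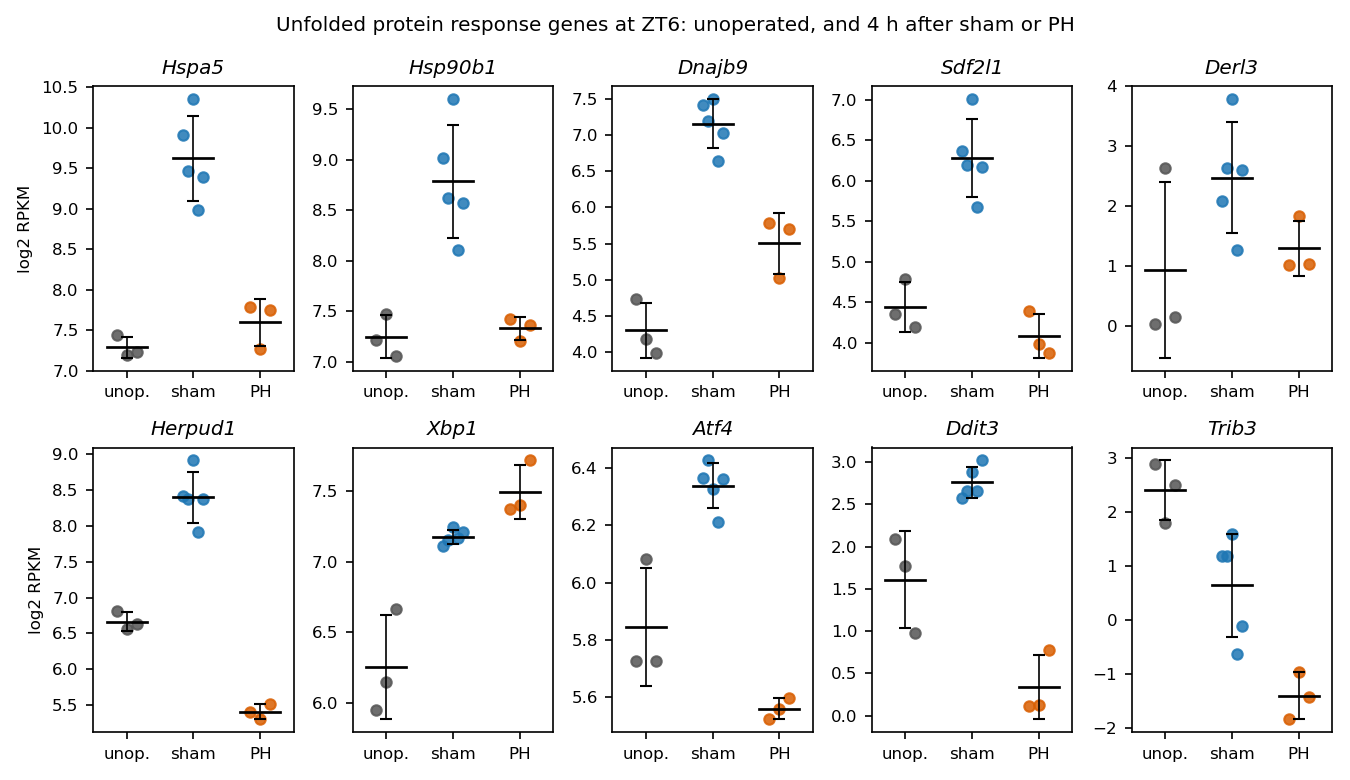
Log2 RPKM (vertical axes, a range of its own in each panel) at ZT6 in 3 unoperated, 5 sham and 3 PH livers, the operated ones 4 h after surgery. Points are livers, bars the mean with its SD. Hspa5, Hsp90b1, Dnajb9, Sdf2l1, Herpud1, Atf4 and Ddit3 are highest after sham, while Xbp1 is raised after both operations and Trib3 is lowest after PH.

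Unoperated livers of the same hour (C4) gave a reference for both operated groups. In the sham livers at 4 h 7 of the 10 members were higher than in C4 and 1 was lower, where 43.3% of all genes were called, 12.2% as higher and 31.0% as lower. The members' median difference was 1.46, beside -0.22 over all genes. Hspa5 was at 7.44, 7.20 and 7.23 log2 RPKM in the C4 livers, 5.04-fold below the sham livers (2.33 ± 0.34, adjusted p = 3.9e-08). Dnajb9 rose most, by 2.83 ± 0.32 (7.12-fold, adjusted p = 2.6e-11), and was at 4.73, 4.19 and 3.99 in the C4 livers. The other rises were those of Sdf2l1 (1.83), Herpud1 (1.73), Hsp90b1 (1.54), Ddit3 (1.08) and Xbp1 (0.92), with adjusted p-values from 5.8e-07 for Hsp90b1 to 0.0015 for Ddit3. Atf4 was higher by 0.49 ± 0.15 (adjusted p = 0.0039), just short of the limit of 0.5. It passed that limit without S4 replicate 4 (0.52) or C4 replicate 2 (0.61). Derl3 differed by 1.39 ± 0.80 and was not called (adjusted p = 0.13), but was without C4 replicate 2 (2.15, adjusted p = 0.041), which at 2.64 lay apart from 0.03 and 0.16. Trib3 went the other way, from 2.90, 1.81 and 2.52 in the C4 livers to the sham values above (-1.59 ± 0.33, adjusted p = 4.2e-05).

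The PH livers at 4 h were set against the same C4 livers, which both comparisons thus share. Only 2 members were higher, Xbp1 by 1.24 ± 0.28 (adjusted p = 0.00012) and Dnajb9 by 1.19 ± 0.36 (adjusted p = 0.0033), and 3 were lower, where 45.6% of all genes were called (11.7% higher, 33.9% lower). Trib3 was 8.82-fold lower (-3.14 ± 0.37, adjusted p = 1.1e-10), Ddit3 lower by -1.13 ± 0.33 (adjusted p = 0.0032) and Herpud1 by -1.26 ± 0.44 (adjusted p = 0.012), the last not called once all libraries were scaled to the same median (-0.97, adjusted p = 0.054). For the other members the differences from C4 were small beside their intervals: 0.31 (-0.45 to 1.08) for Hspa5, 0.08 (-0.49 to 0.65) for Hsp90b1 and -0.36 (-1.18 to 0.47) for Sdf2l1. The 3 C4 livers had Xbp1 at 5.95, 6.14 and 6.66.

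Markers of other cells differed between the groups at 4 h. The neutrophil genes S100a8, S100a9, Ngp, Camp, Ltf and Retnlg summed to 6.85 to 42.0 RPKM in the sham livers (4 to 6 of the 6 genes above 0), to 4.36 to 9.25 in the PH livers (3 or 4 above 0, Camp and Ltf at 0 in all 3) and to 1.05 to 4.93 in the C4 livers. Macrophage markers summed to 11.3 to 29.5 RPKM after sham, 11.5 to 14.8 after PH and 29.5 to 40.4 without surgery. Stellate cell markers summed to 38.2 to 58.3, 41.9 to 53.5 and 87.3 to 101 RPKM in the sham, PH and C4 livers, all 6 genes being above 0 in each. Endothelial markers summed to 14.4 to 26.7, 13.7 to 14.9 and 24.5 to 26.6 RPKM in the same order, and plasma and B cell markers to 0.316 to 1.16, 0.418 to 0.714 and 2.98 to 5.32. Pancreas acinar markers summed to 7.22 to 10.4, 5.83 to 10.2 and 9.65 to 16.0 RPKM, with 2 to 4 of the 13 genes above 0. Hepatocyte markers summed to 32125 to 44473, 35442 to 37106 and 45305 to 50942 RPKM in the sham, PH and C4 livers. Their part in the result was not tested.

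The genes around the members were read from 5 lists of 78 further genes of the pathway, of which 77 could be tested (Slc7a11 was below detection). Between PH and sham at 4 h, 29 of the 77 were lower and 1 was higher, with a median difference of -0.46 beside -0.04 over all genes, of which 5.48% were lower and 3.16% higher. Of the ER chaperones and foldases, 12 of 20 were lower, among them Creld2 (-2.92) and the protein disulfide isomerase Pdia4 (-2.20). Of the ERAD genes, 7 of 14 were lower, led by Syvn1 (-2.27), which encodes the ubiquitin ligase of the complex that Herpud1 and the derlins serve. Of the translocon and signal peptidase genes 4 of 15 were lower, and of the integrated stress response and the ATF4 and CHOP targets 5 of 20, and none of either list was higher. The sensors and ER regulators had 1 lower and 1 higher gene of 8, the latter Creb3l3 (0.55), a liver ER-bound transcription factor. With S4 replicates 4 and 5 as the only sham livers, 13 genes of the 77 were called in place of 30, counting both directions. The share of all genes called in that fit is not given here.

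Against C4, the sham livers had 28 of the 77 genes higher and 6 lower, where 12.2% of all genes were higher and 31.0% lower. Creld2 (3.50), the chaperone Hyou1 (2.54) and Syvn1 (2.40) rose most, and, among genes above a log2 RPKM of 0 in either group, Fkbp2 (-0.91), Cnpy2 (-0.78) and Shmt2 (-0.69) fell most. The PH livers had 8 higher and 21 lower, where 11.7% of all genes were higher and 33.9% lower, so neither share of the list exceeded that of all genes. The largest rises there were those of Ddit4 (3.27), Atf3 (1.94) and Creb3l2 (1.92), a stress-induced regulator of growth signalling and a pair of bZIP transcription factors, and the largest falls those of the hormone gene Fgf21 (-2.36), Fkbp2 (-1.31) and Derl2 (-1.25).

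**Figure D3:**
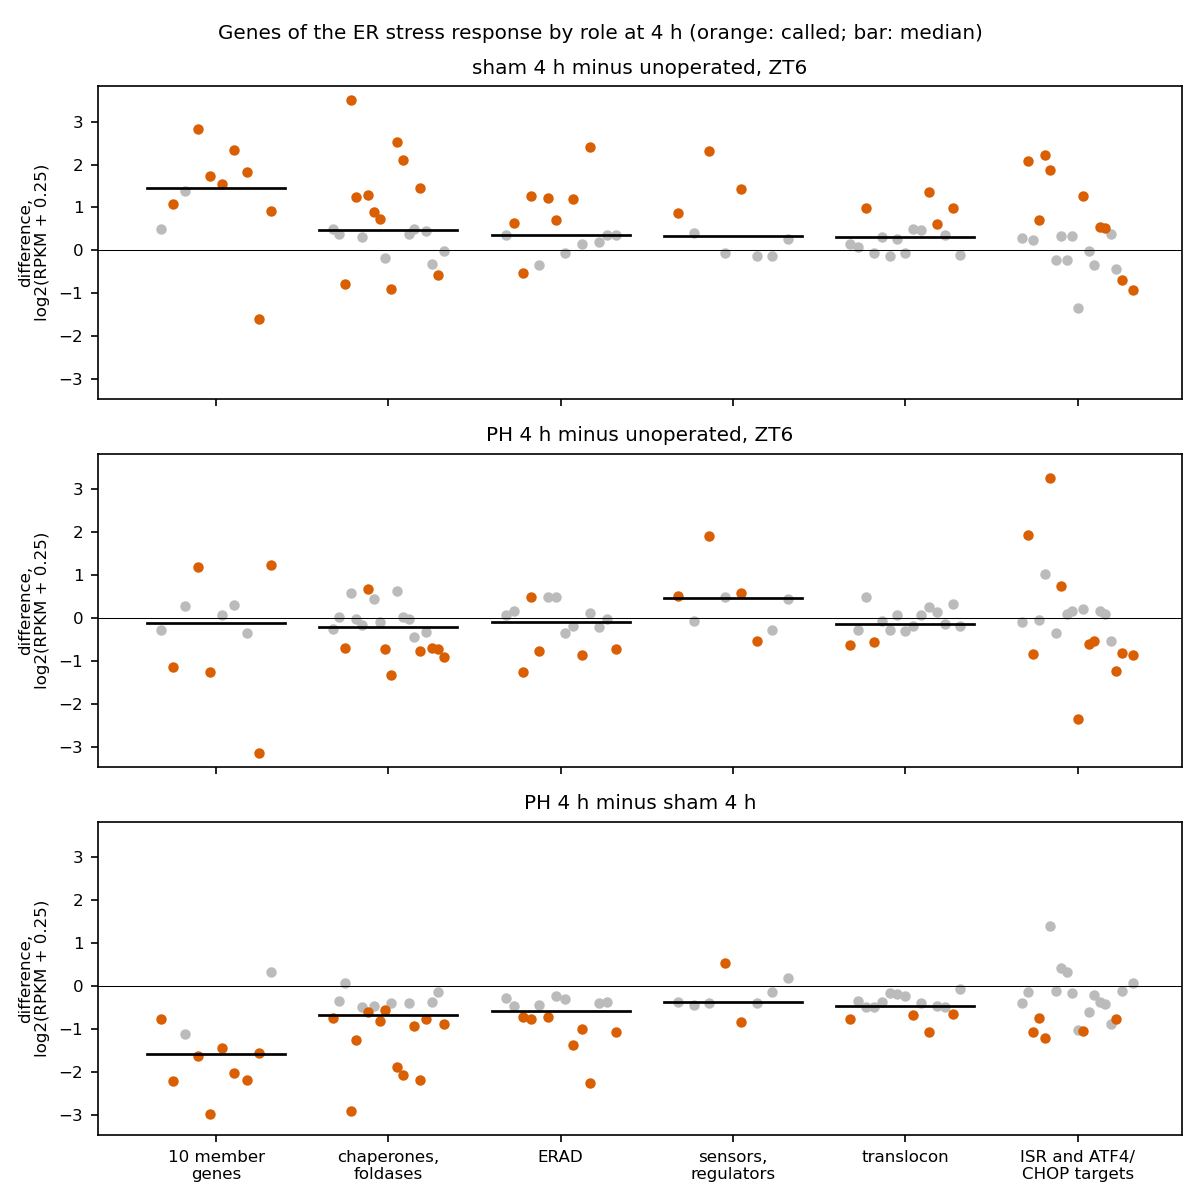
Differences at 4 h on the log2(RPKM + 0.25) scale (vertical axis) for the 10 member genes and the 77 further genes grouped by role (horizontal axis), in sham against unoperated, PH against unoperated and PH against sham livers. Orange points are called genes and bars are medians. Most called chaperone and ERAD genes lie above 0 in sham against unoperated livers and below 0 in PH against sham livers.

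At 10 h, the time the selection used, Derl3 was at 3.36, 3.91 and 5.28 log2 RPKM in the 3 sham livers. In the 6 PH livers it ranged from -1.09 to 2.36 with a median of 1.35, and the difference was -2.86 on the log2(RPKM + 0.25) scale. The sham livers are of the second collection period and the PH livers of the first and second, with Derl3 at 0.77, 2.36 and -1.09 in PH replicates 1 to 3 and at 2.17, 0.70 and 1.92 in replicates 4 to 6. The next members in size were Sdf2l1 (-0.78) and Herpud1 (-0.73), and the other 7 lay between -0.24 for Xbp1 and 0.04 for Ddit3. Sdf2l1 was at 6.42, 6.63 and 6.58 after sham and spread from 4.89 to 6.61 after PH. Hspa5, at 8.94, 8.90 and 8.64 after sham and 8.39 to 9.42 after PH, differed by 0.01. Plasma and B cell markers summed to 0.119 to 0.492 RPKM in the sham livers (3 to 6 of 7 genes above 0) and to 0.535 to 1.22 in the PH livers (5 or 6 of 7), with Tnfrsf17 at 0 in all 9. Pancreas acinar markers summed to 5.09 to 6.25 RPKM in the sham livers (3 or 4 of 13 genes above 0) and to 2.77 to 5.64 in the PH livers (1 to 4 of 13), most of it Cela1, at 4.92 to 5.71 and 2.77 to 5.56 RPKM. Their part in the result was not tested.

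Beyond the time the selection used, Derl3 was highest at 20 h. It was at 4.24, 3.02 and 4.44 log2 RPKM in the sham livers and at 2.62 to 4.68 (median 3.67) in the PH livers. The resting C0 livers ranged from -1.78 to 3.62 with a median of 0.25. Derl3 was above C0 by 3.00 ± 0.73 after sham (adjusted p = 0.0016) and by 2.70 ± 0.58 after PH (adjusted p = 7.4e-05), where 12.1% and 24.1% of all genes were called. Of the 10 members, 3 were called after sham (Derl3 and Sdf2l1 as higher, Trib3 as lower) and 7 after PH (Hspa5, Hsp90b1, Dnajb9, Sdf2l1 and Derl3 as higher, Herpud1 and Trib3 as lower). The size of the Derl3 difference moved with the resting livers, whose mean was 1.12 in replicates 1 to 3, -1.07 in 4 to 6 and 1.75 in 7 to 9. After sham it was 2.60 (adjusted p = 0.028), 4.36 (adjusted p = 0.00015) and 2.04 (adjusted p = 0.055, not called) against these sets, and after PH 2.30 (adjusted p = 0.011), 4.05 (adjusted p = 8.7e-06) and 1.74 (adjusted p = 0.044). The count of called members was 2, 8 and 0 after sham and 3, 9 and 6 after PH. The shares of all genes above are for all C0 livers and cannot be set beside these counts. These comparisons share C0 and set ZT22 against ZT2, so surgery and time of day cannot be told apart. PH livers at 44 h, again at ZT22, had Derl3 at 0.52, 0.69 and 0.83, all below the 6 livers at 20 h. This difference of -2.73 ± 0.78 was called (6.65-fold, adjusted p = 0.005), the only call among the 10 members where 16.1% of all genes were called, 3.11% as lower, and 5.70% were lower without overlap. It stayed called without any single library (-2.92 to -2.52) and with X20 replicates 1 to 3 (-2.71) or 4 to 6 (-2.75) alone. Without X20 replicate 6, Xbp1 was called as well (0.65, adjusted p = 0.043).

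At 20 h no member was called between PH and sham livers, where 7.11% of all genes were called. With a replicate block Herpud1 was called as lower (-0.98, adjusted p = 0.038). The differences ran from -0.74 for Herpud1 to 0.53 for Hsp90b1, the latter with an unadjusted interval of 0.04 to 1.02 (adjusted p = 0.15) and the only one with an unadjusted p below 0.05. The 3 sham livers were spread, Hspa5 being at 8.27, 7.68 and 8.98, while the 6 PH livers lay within 8.52 to 8.77. Of the 77 further genes, 5 were higher and none lower, Dnajc10 (0.64), an ER disulfide reductase, and Ssr3 (0.62) of the translocon complex in front. After scaling to the same median 2 were called, where 449 of all 15396 genes were called as higher and 589 as lower.

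At 48 h Hspa5 and Hsp90b1 were called as higher after PH and no member as lower, the members' median difference being 0.31 beside 0.27 over all genes. Herpud1 (-0.16) and Derl3 (-0.25) were not called. Hspa5 was at 7.45, 8.80 and 7.96 log2 RPKM after sham and at 9.19, 9.02, 8.70, 9.27 and 9.32 after PH, higher by 1.03 ± 0.34 (adjusted p = 0.011). Hsp90b1 was at 7.53, 8.09 and 7.66 after sham and at 8.74, 8.37, 8.36, 8.82 and 8.84 after PH, higher by 0.87 ± 0.25 (adjusted p = 0.004). Hspa5 overlapped between the groups by 1 sham liver and Hsp90b1 did not overlap, as was the case in this direction for 41.5% of all genes. These were the only 2 of 10 members called, a share below that of all genes, of which 27.2% were called, 24.5% as higher. After scaling all libraries to the same median neither gene was called (0.54, adjusted p = 0.26, and 0.37, adjusted p = 0.29). Without S48 replicate 1, Hspa5 was not called (0.72, adjusted p = 0.145), and without S48 replicate 2, Sdf2l1 (1.07, adjusted p = 0.036) and Ddit3 (0.84, adjusted p = 0.043) were called too. Sdf2l1 was also called without X48 replicate 3 (0.96, adjusted p = 0.037) and Ddit3 without X48 replicate 5 (0.81, adjusted p = 0.030). Of the 77 further genes, 35 were higher and 1 lower. After scaling 16 were called, counting both directions, where 1097 of all 15396 genes were called as higher and 1730 as lower. Dnajc10 (1.81), Creld2 (1.60) and Psat1 (1.49) of serine synthesis led, and Chac1 (-1.55), a target of ATF4, was lower.

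The change of the PH effect with time was tested as a difference of differences. Between 4 and 48 h it differed for 8 members, all toward higher values in PH livers (Hspa5 by 3.05 ± 0.48, adjusted p = 5.9e-07, and Ddit3 by 2.86 ± 0.42, adjusted p = 1.2e-07, in front), where 33.6% of all genes were called, 30.3% as higher. Of these, Atf4 (0.81) was not called after scaling (0.27, adjusted p = 0.39), nor Trib3 (1.63) with S4 replicates 4 and 5 as the only sham livers at 4 h (0.78, adjusted p = 0.23). Between 4 and 20 h it differed for 7 members, where 11.0% of all genes were called, 8.46% as higher. They were Hspa5 (2.35), Sdf2l1 (2.26), Herpud1 (2.25), Dnajb9 (2.02), Hsp90b1 (1.98), Ddit3 (1.88) and Atf4 (0.59). Herpud1 was not called with S4 replicates 4 and 5 alone (2.00, adjusted p = 0.055), and Trib3 (1.11, adjusted p = 0.10) was called without S4 replicate 4 (1.38, adjusted p = 0.030). Atf4 (0.59, adjusted p = 0.048), was lost after scaling (0.45, adjusted p = 0.16) and on leaving out any of 13 single libraries, with adjusted p from 0.050 to 0.13. Derl3 and Xbp1 were called in neither. Between 20 and 48 h no member was called (13.2% of all genes were). There Ddit3 alone had an unadjusted p below 0.05 (0.98, adjusted p = 0.10), and it was called without S20 replicate 2 (1.26, adjusted p = 0.044). The livers at 48 h are of the first period and S20 of the second, while S4 and X20 are of both. The X4 livers are of the second if the replicate numbers follow the periods. A change of the PH effect with time was therefore not told apart from a difference between periods.

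**Figure D4:**
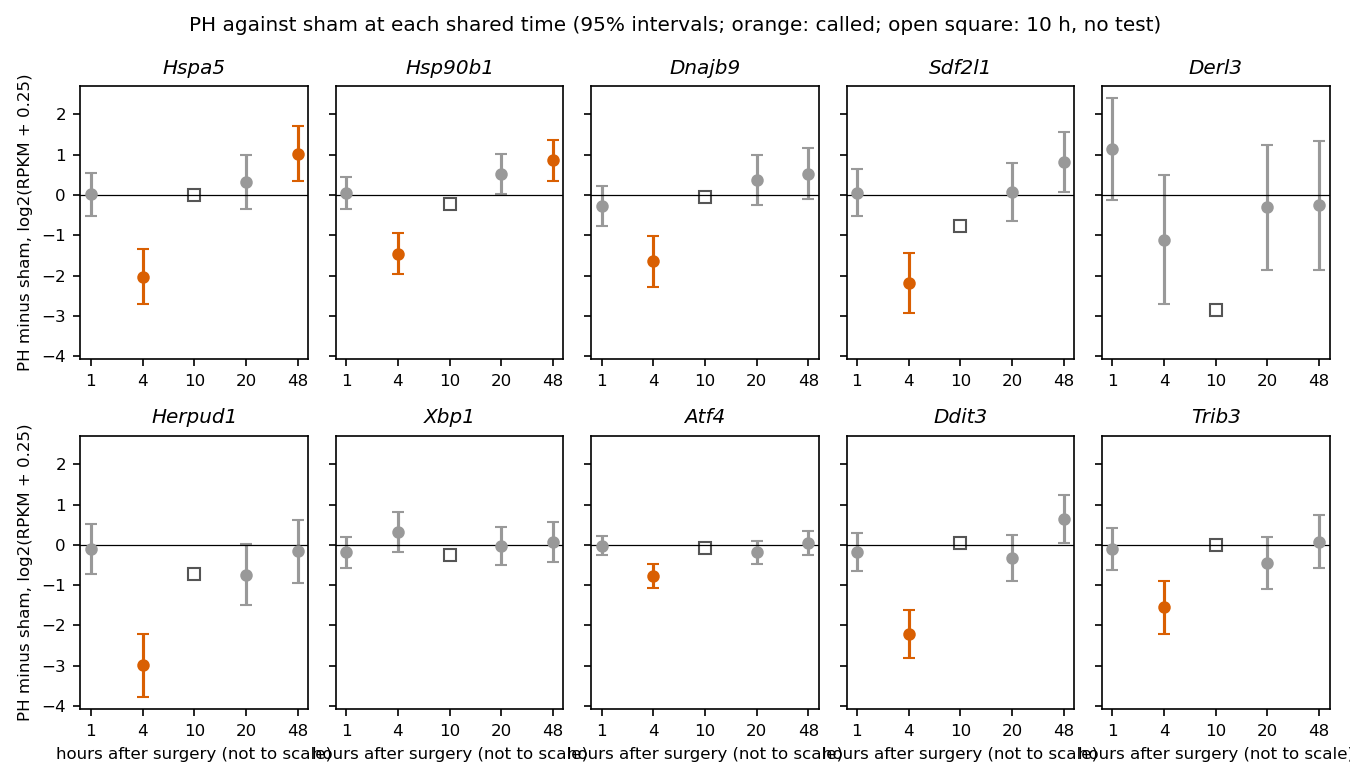
Difference of PH from sham livers (vertical axis, log2(RPKM + 0.25)) at each of the 5 shared times from 1 to 48 h (horizontal axis, not to scale) for each gene. Circles carry 95% intervals from the fit and are orange where called, and open squares mark 10 h, which has no test. Called differences are below 0 at 4 h for 8 genes and above 0 at 48 h for Hspa5 and Hsp90b1.

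Regenerating livers at later ZT2 times were compared with the resting livers at the same hour. At 48 h after PH, 6 members were above C0 and none below, where 38.1% of all genes were called, 30.4% as higher, with a median of 0.24 over all genes: Dnajb9 (2.84-fold, adjusted p = 2.0e-07), Hspa5 (1.31 ± 0.26 on the log2 scale), Hsp90b1 (1.07 ± 0.19), Sdf2l1 (0.93), Xbp1 (0.78) and Ddit3 (0.56). Every one of them overlapped with C0, whose livers were spread. Against C0 replicates 1 to 3 alone Hspa5 was not called (0.58, adjusted p = 0.10) and 3 members were, against replicates 4 to 6 alone 7 were, and against replicates 7 to 9 alone 4 were. Scaling to the same median left Dnajb9, Hspa5 and Hsp90b1, removed Sdf2l1, Xbp1 and Ddit3 (0.11, adjusted p = 0.70) and brought in Trib3 as lower (-0.92). Ddit3 was also lost without any of 6 single libraries. Of the 77 further genes, 46 were higher and none lower, led by Dnajc10 (2.20), Creld2 (1.82) and Psat1 (1.82). After scaling 24 of the 77 were called, counting both directions, where 1648 of all 15396 genes were called as higher and 3193 as lower. Sham livers at 48 h, set against the same C0 livers, also had Dnajb9 (0.97, adjusted p = 0.014) and Xbp1 (0.71, adjusted p = 0.023) called as higher. No member was lower there, where 589 of all 15396 genes were called as higher and 778 as lower. Dnajb9 was lost without S48 replicate 1 or 2, and Xbp1 without S48 replicate 1, 2 or 3.

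At 72 h, 6 members were higher than C0 and Trib3 was lower, where 33.2% of all genes were called, 26.6% as higher and 6.59% as lower. Scaling all libraries to the same median took higher calls over all genes from 80.1% to 40.9% of all calls. Which members stayed called after scaling at 72 h or at 1 week is not given here. Dnajb9 was at 5.73, 6.28 and 5.76 (1.36 ± 0.29, adjusted p = 7.1e-05) and Ddit3 at 2.35, 1.49 and 3.00 (1.20 ± 0.27, adjusted p = 0.00018). Against C0 replicates 1 to 3 alone, 3 members were called, and Dnajb9 was not among them (0.62, adjusted p = 0.11). Atf4, at 0.53, fell under the limit of 0.5 without any 1 of C0 replicates 4, 5 and 6 (0.48 to 0.49) or X72 replicates 1 (0.48) and 3 (0.37), and Trib3 (-0.80) was not called without X72 replicate 1 (-0.64, adjusted p = 0.14) or 3 (-0.76, adjusted p = 0.078). At 1 week Hspa5, Hsp90b1 and Dnajb9 were called as higher and Herpud1 as lower, where 16.9% of all genes were called, 12.4% as higher and 4.48% as lower, but the 3 higher calls rested on X1W replicate 2: without it Hspa5 differed by 0.56 (adjusted p = 0.23). Herpud1 in turn was lost without X1W replicate 3 (-0.57, adjusted p = 0.36), X1W replicate 1 (-0.91, adjusted p = 0.099) or C0 replicate 4 (-0.87, adjusted p = 0.051). Against C0 replicates 1 to 3 alone no member was called at 1 week. At 4 weeks none of the 10 was called against C4W with 2 livers a group, where 0.0650% of all genes were called, and 1, Atf4 (0.47), had an unadjusted p below 0.05. Hspa5 was at 8.29 and 8.19 in the PH livers and 8.71 and 8.70 in the unoperated ones, and Derl3 at 1.64 and 0.78 against 3.08 and 3.20. In all, 6 members were lower and 2 higher without overlap there, where 24.5% and 25.6% of all genes were.

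Without surgery, C4 at ZT6 was above C0 at ZT2 for Trib3 (0.97 ± 0.30, adjusted p = 0.022) and Xbp1 (0.68 ± 0.23, adjusted p = 0.033), where 7.89% of all genes were called, 5.81% as higher. Neither call stood in all settings: Trib3 was lost without C4 replicate 1 or 3, and Xbp1 without C4 replicate 2 or 3 or C0 replicate 4, 5 or 6. Against C0 replicates 1 to 3 alone neither was called, and Hspa5 (-1.23), Sdf2l1 (-1.07), Dnajb9 (-0.99) and Hsp90b1 (-0.77) were called as lower. Against replicates 4 to 6 alone Xbp1 (1.28), Ddit3 (1.04), Trib3 (1.00) and Atf4 (0.73) were called as higher, and against replicates 7 to 9 alone no member was called. PH livers at 28 h, of the same ZT as those at 4 h, had Trib3 higher by 1.66 ± 0.37 (adjusted p = 0.00024) and Xbp1 lower by -0.99 ± 0.28 (adjusted p = 0.0032). The remaining 8 members were not called between these times, where 28.3% of all genes were (22.6% higher, 5.72% lower), Hsp90b1 (0.68, adjusted p = 0.052) being nearest. The X28 livers are of the first period, and the X4 livers are of the second if the replicate numbers follow the periods. In that case period and time after surgery cannot be told apart between them.

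The members fell into looser and tighter company over the 19 group means, given as a description over groups whose libraries came from the same 3 periods. Hspa5 and Hsp90b1 followed each other most closely (Pearson r = 0.92 over group means, 0.89 over the livers within groups), and Hspa5 and Sdf2l1 nearly so (0.84 and 0.87). Derl3 was nearer to Sdf2l1 (0.63 and 0.70) than to Hspa5 (0.30 and 0.51). Herpud1, with an r of 0.19 to Hspa5, stood outside the chaperones although all were lower after PH than after sham at 4 h. Of 11560 genes compared, the closest to Hspa5 were Manf (0.97), a secreted ER stress factor, and the chaperone Hyou1 (0.95). The closest to Hsp90b1 were Trabd and Serp1 (0.96 for each), to Sdf2l1 the disulfide isomerases Pdia4 (0.96) and Pdia3 (0.90), and to Xbp1 the transcript Gm11963 (0.96), annotated upstream of it on the same strand, and Slc41a1 (0.95). The closest to Dnajb9 was Gm6568 (0.97), followed by Yars (0.93). Of its 668 stretches of 30 bases, 42.4% also occur in Dnajb9 exons, so reads of these 2 genes may be shared. The closest genes were farther off for Derl3 (Gm2788, 0.79, and Smcr7l, 0.76) and for Herpud1 (Ogfrl1 and Tob2, 0.70 for each). For Atf4 the closest were Rbm39 (0.81) and Prpf38b (0.80), for Ddit3 Ccdc134 (0.86) and Naa16 (0.85), and for Trib3 Gimap6 (0.84) and Ppp3ca (0.82).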

How the data were processed

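Poly(A) RNA of 80 individual livers in 19 labelled groups was analysed. Of 87 labelled samples, 7 have no value here and were not analysed, among them X4 replicates 1 to 3. Another 4 columns match no labelled sample and were not used, though their names mark them as sham livers at 4 h. The comparison of PH with sham at 4 h thus rests on part of the labelled X4 livers. Per the labels and the study's methods, the authors trimmed single-end stranded reads, aligned them to mm9 with TopHat2 2.0.13 and SAMtools 0.1.19, counted Ensembl genes by strand with multi-mapping reads shared among their positions, and deposited log2 RPKM (genes without reads at -14.29). No spike-in was used, so values are relative to each library's total, and low values gave whole reads too rarely (median 83.2% of them) for a count test. Here log2(RPKM + 0.25) was fitted with limma 3.58.1 (trend, one mean per group, all 80 libraries) for the 15396 genes above -1.5 log2 RPKM in at least 1 library. P-values were adjusted by Benjamini-Hochberg within each comparison, and a gene was called below 0.05 with a change beyond 0.5. The script was tested on simulated data. Alternatives were other pseudocounts, no filter, no trend, scaling to a common median, a replicate block, only the groups compared, sets of replicates and each library left out. Named further genes were, per comparison, the 3 largest called changes in each direction among genes above 0 log2 RPKM in either group, and for each member the 2 genes with the highest correlation over group means. The members and lists were chosen with earlier results of these data known. Group and replicate numbers are those of the labels, and replicates are separate mice. The collection period of each group comes from the study's sample overview.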

Additional observations from a re-analysis of the deposited data

Results flagged for a closer look

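Single livers stood apart from their group, by Dixon's test, in 3 of 80 groups of a member's values; chance alone gives about 1 in 20. They were the highest X10 liver for Atf4 (5.74 log2 RPKM), the lowest X48 liver for Ddit3 (0.91) and the lowest C0 liver for Trib3 (0.14). The difference between PH and sham livers itself differed between times by the limma test of the difference of differences. From 4 to 20 h it rose, on the log2 scale, by 2.35 for Hspa5, 1.98 for Hsp90b1, 2.02 for Dnajb9, 2.26 for Sdf2l1, 2.25 for Herpud1, 0.59 for Atf4 and 1.88 for Ddit3. From 4 to 48 h it rose by 3.05 for Hspa5, 2.32 for Hsp90b1, 2.17 for Dnajb9, 3.01 for Sdf2l1, 2.83 for Herpud1, 0.81 for Atf4, 2.86 for Ddit3 and 1.63 for Trib3. Time and collection period were not told apart in these differences.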

How the results depend on the processing

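Changes of sign were looked for in PH against sham at 1, 4, 20 and 48 h, S4 against C4 and C4 against C0. They were also looked for in X48 against C0 and X44 against X20. No called member reversed its direction there, runs with single libraries left out not being checked. Outside these comparisons, Herpud1, called as higher at 1 h after PH against C0, changed sign with replicates 4 to 6 alone in both groups. The count of members called between PH and sham livers at 4 h stayed at 7 or 8. At 20 h it was 1 with a replicate block in place of 0. At 48 h it was 0 after scaling to a common median, 4 with only the groups compared, and 1 to 4 on leaving out single libraries, in place of 2. Between unoperated livers at ZT6 and ZT2 it was 1 without the filter on low values, 1 after scaling, 0 with only the groups compared, 4 against C0 replicates 1 to 3, 4 against replicates 4 to 6, 0 against replicates 7 to 9, and 0 to 2 on leaving out single libraries, in place of 2. PH livers at 48 h had 3 members called against C0 replicates 1 to 3 in place of 6. Between PH livers at 44 and 20 h it was 2 with only the groups compared, and 1 to 2 on leaving out single libraries. For the change of the PH effect from 20 to 48 h it was 0 to 1 on leaving out single libraries. The cause of these changes was not tested. The shares of all genes called in the changed fits are not given beside these counts. The counts thus show how the calls move with the setting and are not results about the members beside all genes. Samples of the same replicate number did not deviate together (correlations from -0.19 to 0.27), so the numbers were not taken as pairs, and most samples did not correlate best with their own number. The sets of S4 replicates, the sets of C0 replicates for the comparisons at 1 h, 20 h, 72 h and 1 week, and the alternatives for differences between times were chosen after seeing the data. Scaling moved the 48 h comparison most: higher calls were 90.1% of all calls without it and 38.8% with it. Against C0, higher calls went from 80.1% to 40.9% at 72 h and from 73.5% to 35.9% at 1 week. At 20 h against C0 they went from 64.6% to 36.1% after sham and from 68.4% to 37.5% after PH. Depth limits Derl3, Trib3 and Ddit3, which rested on as few as 12, 18 and 32 estimated reads.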
